A study of Danio rerio with 18 samples.

Results

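Ribose methylation of ribosomal RNA (rRNA) was compared between zebrafish embryos at the 32-cell stage and at the 12-somite stage. At the 32-cell stage the embryo lives on RNA laid down in the egg, and by 12 somites its own genome is transcribed and the body axis is segmented. Each stage was measured in 3 RiboMeth-seq libraries of total RNA, which the series' design text calls biological replicates. The labels give no strain and no number of embryos per sample. Neither stage carried a treatment or a mutation. The comparison uses 6 of 14 RiboMeth-seq libraries, and the other 8 come from unfertilized egg (3), protruding-mouth larvae (3) and adult tail (2). Both stages were mapped to the same reference, the early (maternal) rRNA, per the file headers, so no change of reference enters the comparison. Egg was also scored on early rRNA, but protruding-mouth and adult tail were scored on late rRNA. The share of late rRNA in either stage was not measured here. The sites are the 98 that the authors list for all stages, of which 35 lie in 18S rRNA, 60 in 28S rRNA and 3 in 5.8S rRNA, and all 98 were measured in all 6 libraries. They were taken from this list as it stands. The authors give it with the stage means of these same libraries, so it may not be independent of the values compared here.

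A methyl group on the ribose 2′-oxygen is placed on rRNA mainly by fibrillarin, which box C/D small nucleolar RNAs (snoRNAs) guide to each nucleotide by base pairing. The modification is added while the ribosome is being made, so ribosomes that are already assembled are taken to keep the pattern they were made with. Partly methylated sites are one way in which ribosomes of one cell can differ from each other. In RiboMeth-seq, RNA is broken with alkali, and a 2′-O-methylated nucleotide protects the bond next to it, so that few reads end there. The score is 1 minus the read ends at a position over the weighted mean of its 6 neighbours on each side, from 0 (no protection) to 1 (full protection). A score between these limits is an average over all rRNA copies in the sample. Whether every cell carried it or some cells more than others cannot be told apart.

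The sites on which the comparison turns are shown with 10 bases on each side in early rRNA, as the deposited sheets give the sequence, with the site in capitals. The first pair are the sites nearest to a stage difference, the next 5 are the other sites whose stage means lay at least 0.1 apart, and the last 4 are a site with a wide range between libraries, a site that stayed partly methylated, and an adjacent U and G. Site names follow human numbering, and positions count from 1 in the early rRNA.
18S-Gm509: gacacggagaGguagugacga
28S-Gm1303: cacccgacccGucuugaaaca
28S-Am4560: ugcaauaguaAucccgcucag
18S-Cm346: acgguucauuCgaaugucugc
28S-Gm3923: gcccugugaaGagacaugagg
28S-Um3904: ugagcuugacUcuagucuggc
28S-Cm2338: gggcgcagauCuuggugguag
18S-Cm462: gcuaccacauCcaaggaaggc
28S-Cm3916: uagucuggccCugugaagaga
28S-Um4468: agcguuggauUguucacccac
28S-Gm4469: gcguuggauuGuucacccacu
Over windows of 21 bases, 73 of the 98 sites have the same letters in early and late rRNA. Among the sites shown, 18S-Gm509, 28S-Am4560, 18S-Cm346, 28S-Gm3923, 28S-Cm2338 and 28S-Cm3916 differ by 1 letter from the late rRNA.

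The 32-cell libraries held 10864199, 11081515 and 12167835 read ends and the 12-somite libraries 9063104, 10305061 and 4408072. The third 12-somite library was the shallowest, with 10.4% of its ends on 10 positions. The mean over the neighbours of a site fell to 32.25 read ends in that library, and was at least 168.6 in the other 5. The libraries of the 2 stages share no sequencing barcode, per the file headers, and the effects of barcode and of stage therefore cannot be told apart. The third 12-somite library also had the highest background, with a median score of 0.213 at positions that are not listed, against 0.0786 and 0.138 in the other two and 0.0803 to 0.103 at 32-cell.

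Most sites had close scores in the 32-cell and the 12-somite embryo. No listed site passed the test in the main fit, which used all read ends and all 14 libraries. In 2 of the alternative fits given below, 18S-Gm509 passed. Stage means lay less than 0.05 apart at 74 sites and less than 0.1 apart at 92 sites. By stage means, without the authors' barcode correction, 87 sites scored at least 0.75 at 32-cell, and 86 did so at 12-somite. At 79 sites all 6 libraries scored at least 0.75, and at 37 sites all 6 scored at least 0.9. limma, fitted to all 98 sites with the spread of the 14 libraries, called 0 sites (0%) at a Benjamini-Hochberg adjusted p under 0.05, and the smallest adjusted p was 0.761. At an unadjusted p under 0.05 there were 5 sites (5.1%): 18S-Gm509 and 18S-Am1637 were higher at 12-somite, and 28S-Cm2338, 28S-Cm3866 and 28S-Um4276 were lower. A quasi-binomial model of the read ends called 0 sites as well.

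The precision differed widely between sites, and it sets what the absence of a call can say. The 95% interval of the difference lay within 0.1 of 0 on both sides at 55 sites and within 0.05 at 21 sites. Its half-width had a median of 0.0629 and ran from 0.0198 to 0.426. The 3 sites with the narrowest intervals, named for that after their values were seen, were close to full methylation in every library. 28S-Am2350 scored 0.984, 0.978 and 0.988 at 32-cell and 0.988, 0.974 and 0.985 at 12-somite. 28S-Gm4198 scored 0.982, 0.9803 and 0.986, then 0.983, 0.986 and 0.996. 28S-Gm2351 scored 0.988, 0.980 and 0.993, then 0.987, 0.987 and 0.9898. At the other end, 13 sites ranged over at least 0.3 within these 6 libraries.

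**Figure D1:**
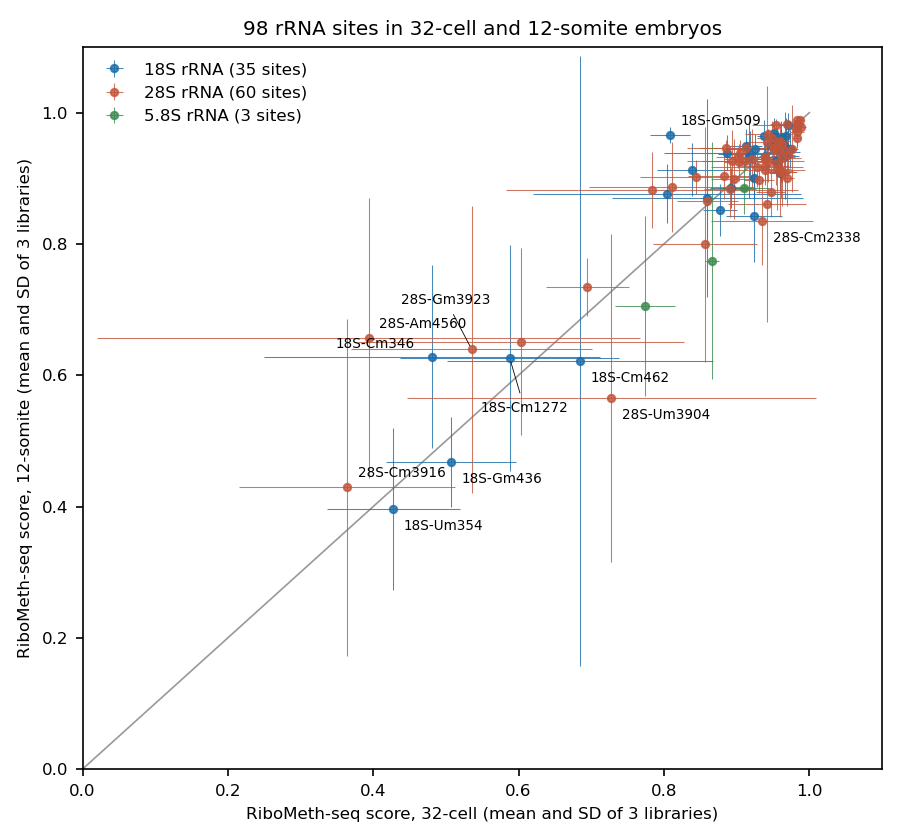
Each point is 1 of the 98 sites, with its mean RiboMeth-seq score at 32-cell on the horizontal axis and at 12-somite on the vertical axis (score, 0 to 1), bars showing the SD of 3 libraries and colours the rRNA. Most sites sit near the diagonal above 0.75 in both stages, and the sites below that level carry the longest bars.

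By direction, 42 sites were higher and 56 lower at 12-somite, with a median difference of -0.00376. In 18S rRNA 16 of 35 sites were higher (median difference -0.00234), in 28S rRNA 26 of 60 (-0.00412) and in 5.8S rRNA 0 of 3 (-0.0682). By nucleotide, 10 of 29 A sites, 10 of 19 C sites, 16 of 28 G sites and 6 of 22 U sites were higher at 12-somite. These counts were not tested. The median over the 98 sites was 0.9402, 0.9422 and 0.9401 in the 32-cell libraries and 0.9352, 0.9357 and 0.9274 in the 12-somite libraries. Every 12-somite library lay below every 32-cell library, with a difference of -0.00810 between the means (exact permutation test of 3 against 3 libraries, two-sided p 0.1, the smallest p this design allows). In 5′ read ends alone the medians differed by -0.00576 (exact p 0.1), while the mean over the sites differed by 0.000593 in the other direction (exact p 1).

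18S-Gm509 (position 555 of early and 519 of late 18S rRNA), which the snoRNA SNORD11 guides in human, came closest to a stage difference. It scored 0.783, 0.837 and 0.805 at 32-cell and 0.952, 0.973 and 0.973 at 12-somite. All 3 libraries of the later stage lay above all 3 of the earlier one. It was the only listed site at which the libraries did not overlap in all ends, in 5′ ends and in 3′ ends. The share of unlisted positions that did so was not computed, so whether 1 site exceeds that share was not tested. All ends contain the 5′ and the 3′ ends, so these readings are not independent. In 12-somite library 3 the 3′ score was 1.00, with only 1 read end of either kind at the site. The mean went from 0.808 ± 0.0272 (SD, n = 3) to 0.966 ± 0.0116 (n = 3), a difference of 0.158 (SE 0.0604, 95% interval 0.0240 to 0.292, limma p 0.0251, adjusted p 0.761).

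The read ends behind 18S-Gm509 were few in the later stage. The 32-cell libraries had 301, 62 and 130 ends at the site, where 1308, 391.5 and 685.4 were found per neighbouring position. The 12-somite libraries had 16, 5 and 1 ends, against 351.3, 189.9 and 35.25. In the third 12-somite library, with its 1 end, counting error at the site alone allows a score from 0.847 to 0.999 (95% limits). These limits take the counts of the neighbours as fixed, so they leave out part of the counting error. The lower limit lies above the highest 32-cell score, 0.837, and below the upper limit of that score computed the same way, 0.875. The nearest listed neighbour, 18S-Am512, is 3 positions away and is itself one of the flanking positions of the score. It scored 0.982, 0.956 and 0.973 at 32-cell and 0.980, 0.961 and 1.00 at 12-somite, so the stages overlapped there.

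The call at 18S-Gm509 depended on the libraries in the fit and on the block. The egg libraries scored 0.861, 0.633 and 0.909 at this site. On late rRNA the protruding-mouth libraries scored 0.948, 0.967 and 0.843 and the adult libraries 0.953 and 0.889. The range of the egg libraries, without the authors' barcode correction, was thus wider than the difference between the stages compared. With the 32-cell and 12-somite libraries fitted alone the limma adjusted p was 0.0216, and with scores rebuilt to match the authors' barcode-corrected stage means it was 0.0359. With the same 6 libraries and the library number as a block the adjusted p was 0.0900, so the call was lost, and with all stages but without egg library 2 it was 0.0736. The barcode correction replaced the low egg value, 0.633, by 0.864 and no value of the stages compared. Over 28 alternatives the limma or quasi-binomial adjusted p ran from 0.0216 to 0.896, and only the 2 stages alone without the block and the barcode-corrected scores made the call. A coverage minimum of 50 leaves the site out. In 5′ read ends the scores were 0.771, 0.8497 and 0.831 against 0.925, 0.989 and 0.964, a difference of 0.142 (limma adjusted p 0.146). With the 2 stages alone the 5′ difference had a limma adjusted p of 0.0953, and with the library number as a block as well it passed (0.0255). It also passed without protruding-mouth library 3 (0.0480).

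**Figure D2:**
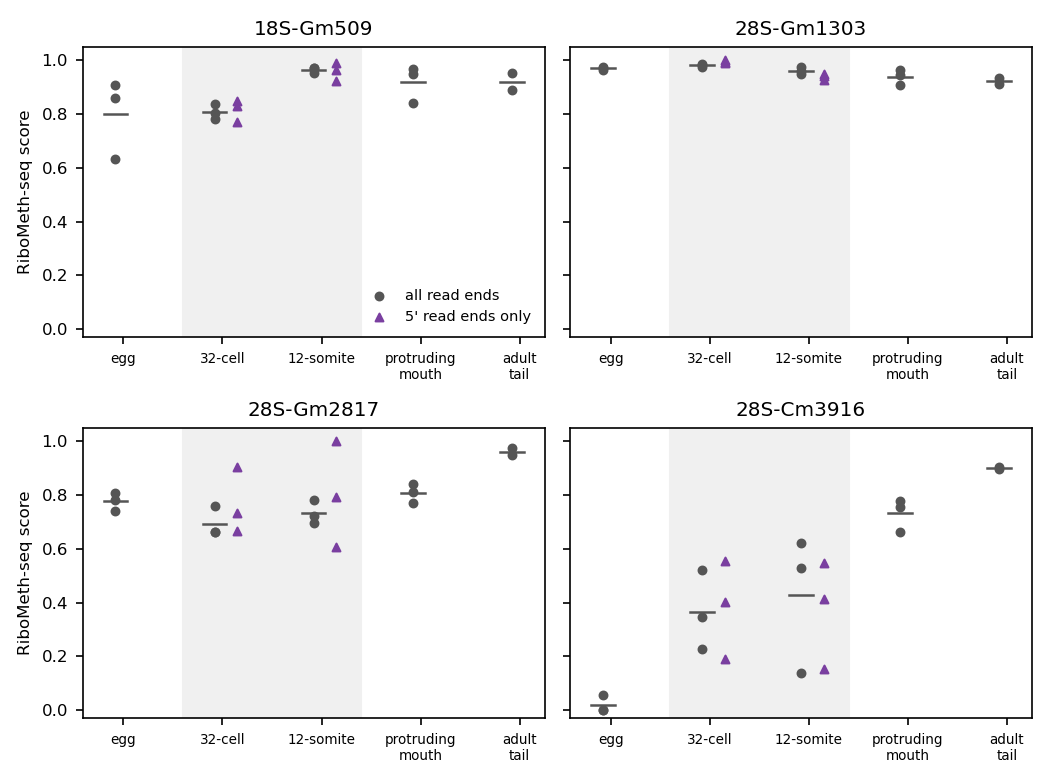
RiboMeth-seq score (vertical axis, 0 to 1) at 4 sites in each library of 5 stages, with circles for all read ends, triangles for 5′ read ends at the 2 stages compared (shaded) and lines for stage means. At 18S-Gm509 the 32-cell libraries (0.783 to 0.837) lie below the 12-somite libraries (0.952 to 0.973). The egg libraries range from 0.633 to 0.909 without the authors' barcode correction, which by inference replaced 0.633 by 0.864. Protruding-mouth and adult tail are scored on late rRNA, the other stages on early rRNA.

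In scores from 5′ read ends alone, 1 listed site passed the test, 28S-Gm1303 (position 925 of early and 913 of late 28S rRNA), and it was lower at 12-somite. The 5′ scores went from 0.991, 1.00 and 0.993 to 0.950, 0.942 and 0.929, without overlap. The difference was -0.0539 (SE 0.00943, 95% interval -0.0752 to -0.0327, limma adjusted p 0.02496 over 98 sites and 12 libraries). This was the only call in 5′ ends (1.02%), with 4 sites (4.08%) at an unadjusted p under 0.05. With all ends the same site scored 0.977, 0.982 and 0.988 against 0.950, 0.961 and 0.974, a difference of -0.0208 (limma adjusted p 0.785), again without overlap. In 3′ ends alone the stages overlapped. Few ends lay at this site: 13, 11 and 6 with all ends at 32-cell, and 27, 16 and 2 at 12-somite. The 5′ ends are only part of these. In 12-somite library 3 there were 78.75 ends per neighbouring position. Counting error at the site alone allows an all-ends score of 0.907 to 0.997 there (95% limits, neighbours taken as fixed). The 5′ score of 0.929 in that library rests on only 1 of these 2 ends, since the 3′ score there (0.984) was also below 1. Its neighbours likewise held fewer 5′ ends than the 78.75 ends of both kinds. The counting limits of this 5′ score were not computed, and the all-ends limits do not bound it.

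The call at 28S-Gm1303 was small in size and did not hold in every fit. The site stayed above 0.9 in all 6 libraries in either reading. The adjusted p was under 0.05 in 8 of 15 alternatives of the 5′ fit, where the limma adjusted p ran from 0.0132 to 0.321. It was 0.0907 with the 2 stages alone and 0.321 with the library number as a block. It was 0.0899, 0.143 and 0.103 without 32-cell library 1, 2 or 3, and 0.1004 and 0.118 without 12-somite library 2 or 3. At egg the all-ends mean was 0.970, and at protruding-mouth, scored on late rRNA, it was 0.93999.

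With all ends 4 sites had means higher by at least 0.1 at 12-somite, and none of them passed the test in the main fit. 28S-Am4560 differed most and 18S-Gm509 followed. 28S-Am4560 (position 3860 of early 28S rRNA) scored 0.743, 0 and 0.439 at 32-cell and 0.641, 0.451 and 0.877 at 12-somite, so the stages overlapped and each ranged widely. The difference of the means was 0.263 (SE 0.185, 95% interval -0.146 to 0.672, limma adjusted p 0.785). In 5′ ends the direction was the other one, with 0.915, 0.842 and 0.857 at 32-cell and 0.7501, 0.723 and 0.880 at 12-somite (difference -0.0868, limma adjusted p 0.738). The 0 in 32-cell library 2 stands on 1920 read ends at the site against a plain mean of 1931 per neighbour, so it is not a gap in coverage.

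18S-Cm346 and 28S-Gm3923 also had higher means at 12-somite with all ends. 18S-Cm346 (position 392) scored 0.713, 0.476 and 0.251, then 0.789, 0.546 and 0.550 (difference 0.148, limma adjusted p 0.785). In 5′ ends it was close to full in every library, at 0.958, 0.974 and 0.960 against 0.972, 0.959 and 0.936. 28S-Gm3923 (position 3204) scored 0.720, 0.489 and 0.397, then 0.597, 0.876 and 0.445 (difference 0.104, limma adjusted p 0.881), while its 5′ scores lay between 0.892 and 1.00. In 5′ ends the differences were -0.00843 at 18S-Cm346 and -0.0231 at 28S-Gm3923, the other sign. The partial scores of both sites with all ends were thus absent from the 5′ ends in both stages.

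The next largest positive differences were smaller than 0.1. They were 28S-Um4590 (0.0992), 28S-Cm4032 (0.0756), 18S-Am1637 (0.0742), 18S-Am1678 (0.0729), 28S-Cm3916 (0.0649) and 28S-Gm4469 (0.0601), each with overlapping libraries. In 5′ ends 4 of these 6 had the other sign, namely 28S-Um4590 (-0.0228), 28S-Cm4032 (-0.0146), 28S-Cm3916 (-0.0114) and 28S-Gm4469 (-0.0173). 18S-Am1637 (position 1702) was higher by a similar amount in 5′ ends (0.0605, limma adjusted p 0.611). It scored 0.892, 0.796 and 0.829 at 32-cell and 0.868, 0.941 and 0.931 at 12-somite. The highest 32-cell library exceeded the lowest 12-somite library. At 28S-Um4590 the difference rested on 32-cell library 1, which scored 0.553 where the other 5 libraries scored 0.819 to 0.931.

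Means lower by at least 0.1 at 12-somite were found at 28S-Um3904 and 28S-Cm2338, and neither passed the test. 28S-Um3904 (position 3185), a target of SNORD52 in human, scored 0.859, 0.404 and 0.919 at 32-cell and 0.848, 0.377 and 0.470 at 12-somite (difference -0.162, SE 0.186, limma adjusted p 0.808). Its low values lay in both libraries numbered 2 and in 12-somite library 3, and in 5′ ends all 6 libraries scored 0.906 to 0.979. 28S-Cm2338 (position 1785) scored 0.978, 0.854 and 0.973, then 0.912, 0.787 and 0.805 (difference -0.1005, SE 0.0390, 95% interval -0.187 to -0.0140, limma p 0.0269, adjusted p 0.761). In 5′ ends it scored 0.983 to 0.999 and 0.957 to 1.00, and the difference was -0.00912.

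Among the smaller negative differences the libraries did not overlap at 28S-Cm3866 and 28S-Cm2848, in all ends or in 5′ ends. 28S-Cm3866 (position 3147) scored 0.949, 0.966 and 0.925 at 32-cell and 0.845, 0.920 and 0.872 at 12-somite (difference -0.0677, SE 0.0274, limma p 0.0321, adjusted p 0.761). In 5′ ends the difference was -0.0451 (limma adjusted p 0.611). 28S-Cm2848 (position 2297) scored 0.980, 0.961 and 0.968, then 0.907, 0.939 and 0.855 (difference -0.0692, limma adjusted p 0.785), with a 5′ difference of -0.0687 (limma adjusted p 0.611). 28S-Um4276 (position 3574) scored 0.974, 0.978 and 0.962, then 0.911, 0.971 and 0.925 (difference -0.0355, limma p 0.0388, adjusted p 0.761), and its libraries overlapped. 18S-Am468, 28S-Am1511 and 28S-Am3697 had differences of -0.0811, -0.0807 and -0.0568, and all 3 were higher at 12-somite in 5′ ends, by 0.0277, 0.00601 and 0.0131.

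**Figure D3:**
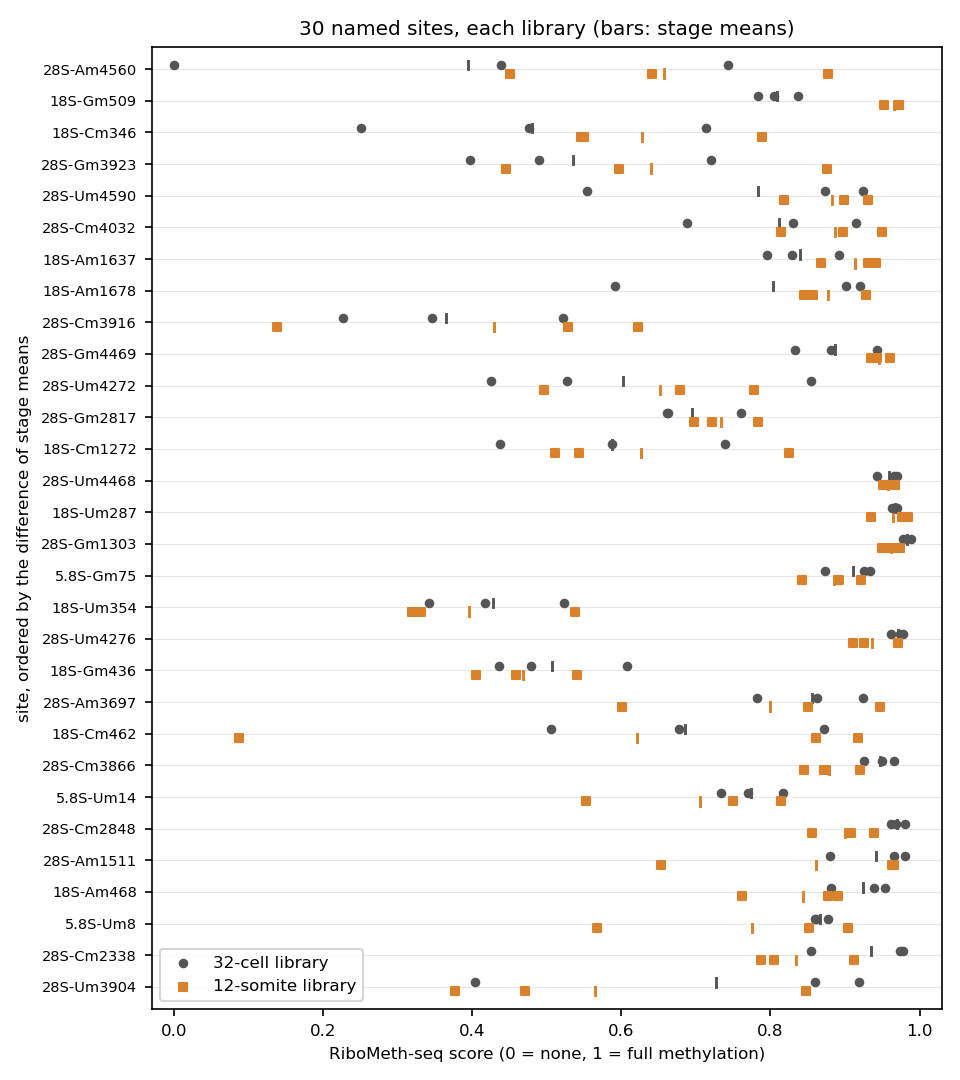
RiboMeth-seq score (horizontal axis, 0 to 1) of each library at 30 sites, ordered by the difference of the stage means from the most positive (top) to the most negative, with grey circles for 32-cell, orange squares for 12-somite and bars for stage means. The groups stand apart at 18S-Gm509, and narrowly at 28S-Gm1303, 28S-Cm2848 and 28S-Cm3866, while at the sites with the largest differences of means, such as 28S-Am4560 and 28S-Um3904, they overlap.

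Counted over the whole list, the 3 libraries of one stage lay entirely above those of the other at few sites. With all ends 2 sites were higher at 12-somite (2.04%), 18S-Gm509 and 18S-Um1288, and 5 were lower (5.1%), 18S-Um172, 28S-Gm1303, 28S-Cm2848, 28S-Cm3866 and 28S-Cm4426. Positions outside the list gave 282 of 6211 higher (4.54%) and 150 lower (2.42%). In 5′ ends 5 listed sites were higher (5.1%) and 10 lower (10.2%). At 4 sites the libraries were apart in the same direction in all ends and in 5′ ends, namely 18S-Gm509, 28S-Gm1303, 28S-Cm2848 and 28S-Cm3866. All ends contain the 5′ ends, so these readings are not independent. No share over unlisted positions was computed for 5′ ends or for both readings together. Whether these counts exceed such a share was therefore not tested. At 18S-Um1288 the separation was narrow, with 0.930 as the highest 32-cell score and 0.931 as the lowest 12-somite score.

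Scores from 5′ ends and from all ends gave different pictures of the same libraries. Stage means at least 0.1 apart were found at 6 sites with all ends, at 5 sites with 5′ ends and at 18 sites with 3′ ends. A 3′ score was available in all 6 libraries at 96 sites, and the count of 18 was not limited to these. Of the 6 sites with all ends, 1 was also at least 0.1 apart in the same direction in 5′ ends, 18S-Gm509. The direction was the same in both readings at 64 of 98 sites. The 32-cell mean was higher in 5′ ends than in all ends at 81 sites, and the 12-somite mean at 73.

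The other sites at least 0.1 apart in 5′ ends were 18S-Cm1272, 28S-Am389, 28S-Am391 and 18S-Um354. 18S-Cm1272 (position 1339), a target of SNORD66 in human, had 5′ scores of 0.161, 0.360 and 0.259 at 32-cell and 0.247, 0.468 and 0.631 at 12-somite (difference 0.188, limma adjusted p 0.635). With all ends its libraries spread over 0.437 to 0.739 and 0.511 to 0.824. The lower means at 28S-Am389 (-0.111) and 28S-Am391 (-0.195), 2 positions apart, came from 12-somite library 3, with 5′ scores of 0.574 and 0.444 where the other 5 libraries scored at least 0.885 and 0.941. That library is the shallowest, and its part in these differences beyond its own value was not tested. 18S-Um354 had 5′ scores from 0.0199 to 0.691 at 32-cell and from 0 to 0.628 at 12-somite (difference -0.102, limma adjusted p 0.885).

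**Figure D4:**
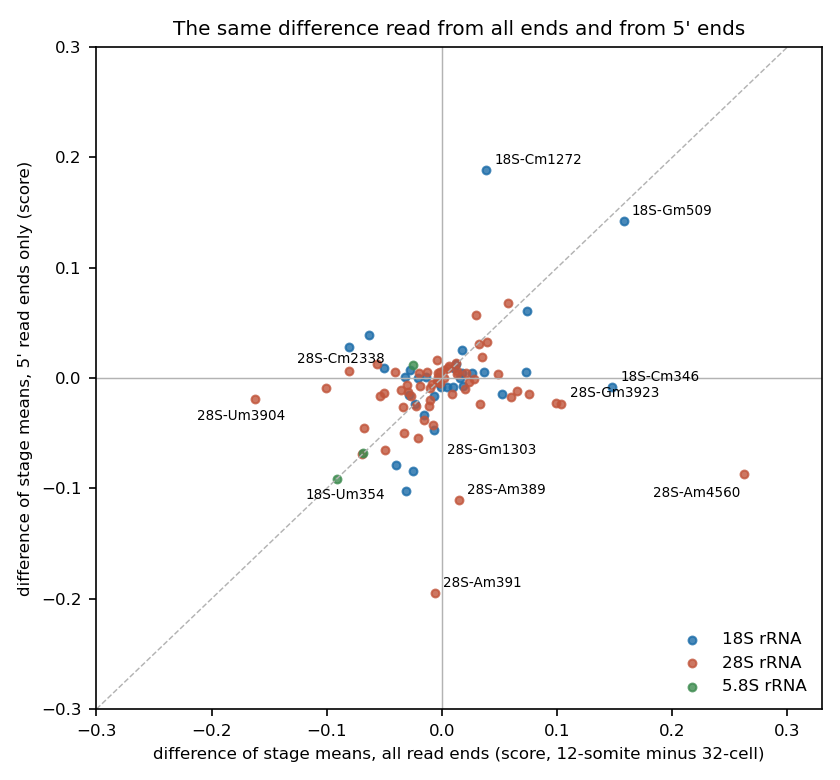
Difference of stage means (12-somite minus 32-cell, score units) at 98 sites, from all read ends on the horizontal axis and from 5′ read ends on the vertical axis, with the dashed line where both are equal. 18S-Gm509 lies near the line (0.158 and 0.142), while 28S-Am4560 (0.263 and -0.0868), 18S-Cm346 and 28S-Um3904 lie far from it.

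Partly methylated sites were nearly the same set at both stages. With all ends 12 sites had a mean under 0.75 in either stage, 11 of them in both, and the other one, 5.8S-Um14, at 12-somite only. The 11 were 18S-Cm346, 18S-Um354, 18S-Gm436, 18S-Cm462, 18S-Cm1272, 28S-Gm2817, 28S-Um3904, 28S-Cm3916, 28S-Gm3923, 28S-Um4272 and 28S-Am4560. These means use library scores without the authors' barcode correction. In the authors' corrected stage means, 18S-Cm462 (0.926 at both stages) and 28S-Um3904 (0.919 at 32-cell, 0.759 at 12-somite) were not under 0.75. Over the 12 sites 7 were higher and 5 lower at 12-somite, and 0 were called, as over all sites. The SD between libraries had a median of 0.158 at 32-cell and 0.158 at 12-somite over the 12 sites, against 0.0211 and 0.0266 over the other 86.

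In 5′ ends these 12 sites were of different kinds. At 5 of them, 18S-Cm346, 18S-Cm462, 28S-Um3904, 28S-Gm3923 and 28S-Um4272, both stages had means of at least 0.9. The 12-somite 5′ mean of 18S-Cm462 rests on few read ends. At 5 others, 18S-Um354, 18S-Gm436, 18S-Cm1272, 28S-Cm3916 and 5.8S-Um14, at least 1 stage stayed under 0.75. At 5.8S-Um14 the stage difference was nearly the same in 5′ ends (-0.0683) as in all ends (-0.0682). The 5′ reading is therefore hardly a separate check at that site. No site with means of at least 0.75 in all ends dropped below it in 5′ ends. Means under 0.75 in both readings and both stages were thus measured at 18S-Um354, 18S-Gm436, 18S-Cm1272 and 28S-Cm3916.

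18S-Gm436 (position 482), guided by SNORD100 in human, was the steadiest of these. It scored 0.608, 0.436 and 0.479 at 32-cell and 0.458, 0.405 and 0.541 at 12-somite (difference -0.0398, SE 0.126, limma adjusted p 0.917). Its 5′ scores were 0.652, 0.423 and 0.532, then 0.472, 0.389 and 0.510. Both readings thus gave middle scores at both stages, and the shift was smaller than the spread between libraries.

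28S-Cm3916 (position 3197) scored 0.226, 0.522 and 0.346 at 32-cell and 0.622, 0.528 and 0.138 at 12-somite. The later stage held both the highest and the lowest library, and the difference was 0.0649 (SE 0.109, 95% interval -0.178 to 0.307, limma adjusted p 0.885). The 5′ scores gave the same mean level, 0.383 ± 0.183 (SD, n = 3) and 0.371 ± 0.201 (n = 3). Each library held at least 1516 read ends per neighbouring position. Counting error at the site alone allows 0.101 to 0.173 for the lowest library, with the neighbours taken as fixed. The egg libraries scored 0, 0.0579 and 0, below all 6, and the protruding-mouth libraries 0.663 to 0.779, above all 6. The protruding-mouth scores are on late rRNA, whose sequence around this site differs by 1 letter.

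28S-Gm2817 (position 2265) scored 0.662, 0.760 and 0.661, then 0.722, 0.697 and 0.784 (difference 0.0396, SE 0.0324, limma adjusted p 0.808), so the stages overlapped. Its 5′ scores ranged from 0.666 to 0.905 and from 0.606 to 1.00. 28S-Um3904, 28S-Cm3916 and 28S-Gm3923 lie close together, at positions 3185, 3197 and 3204 of early 28S rRNA, and the windows from which their scores are computed share positions.

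Some wide differences between libraries recurred under the same library number at both stages. At 4 sites the library numbered 2 scored lower than both other libraries by over 0.1 at both stages, and this was found at 0 sites for the libraries numbered 1 and at 0 for those numbered 3. 18S-Am99 (position 99, SNORD57 in human) scored 0.927, 0.708 and 0.944 at 32-cell and 0.945, 0.696 and 0.969 at 12-somite. 18S-Cm462 (position 508) is the target of SNORD14 in human, a snoRNA that also takes part in making 18S rRNA in yeast. It scored 0.872, 0.506 and 0.678, then 0.917, 0.0868 and 0.861. 28S-Um4272 scored 0.528, 0.426 and 0.855, then 0.679, 0.497 and 0.778. It met this rule narrowly at 32-cell, where library 3 stood apart. 28S-Am4560, given above, was the fourth. In 5′ ends 18S-Cm462 scored 0.979, 0.913 and 0.992 and then 1.00 in all 3 libraries, and 28S-Um4272 scored 0.967 to 0.995 and 0.976 to 0.995. No library scored below 0.913 in 5′ ends at these 2 sites. At 18S-Cm462 the 12-somite scores from 3′ ends alone were 0.915, 0.0825 and 0.861, nearly those from all ends. The 12-somite ends around this site were thus mostly 3′ ends, and its 5′ scores of 1.00 rest on few counts.

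The authors' stage means carry a barcode correction at some of these sites, per the file headers. Matching those means to library scores gave 11 replaced values at 7 sites in the 2 stages, 8 of them in libraries numbered 2. Per the file headers, 32-cell library 2 shares its barcode with egg library 1, and 12-somite library 2 with protruding-mouth library 2. At 28S-Um3904 a value was replaced in each of these libraries. Not every replaced value recurred in the library with the same barcode. Whether low values went with the barcode or the library number was not tested. At 18S-Cm462 it moved 12-somite library 2 from 0.0868 to 1, and at 18S-Am1678 it moved 32-cell library 2 from 0.591 to 1. With these values the difference changed sign at 5 of the 7 sites. It went from 0.0729 to -0.0635 at 18S-Am1678 and from 0.0756 to -0.0259 at 28S-Cm4032. It went from -0.0807 to 0.0349 at 28S-Am1511, from -0.0568 to 0.0712 at 28S-Am3697 and from -0.0634 to 0.000431 at 18S-Cm462. The sign was kept at 28S-Um3904 (-0.162 and -0.159) and 18S-Am99 (0.0106 and 0.0156). None of the 7 sites was called with either score. Which library the authors changed is inferred from the means.

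**Figure D5:**
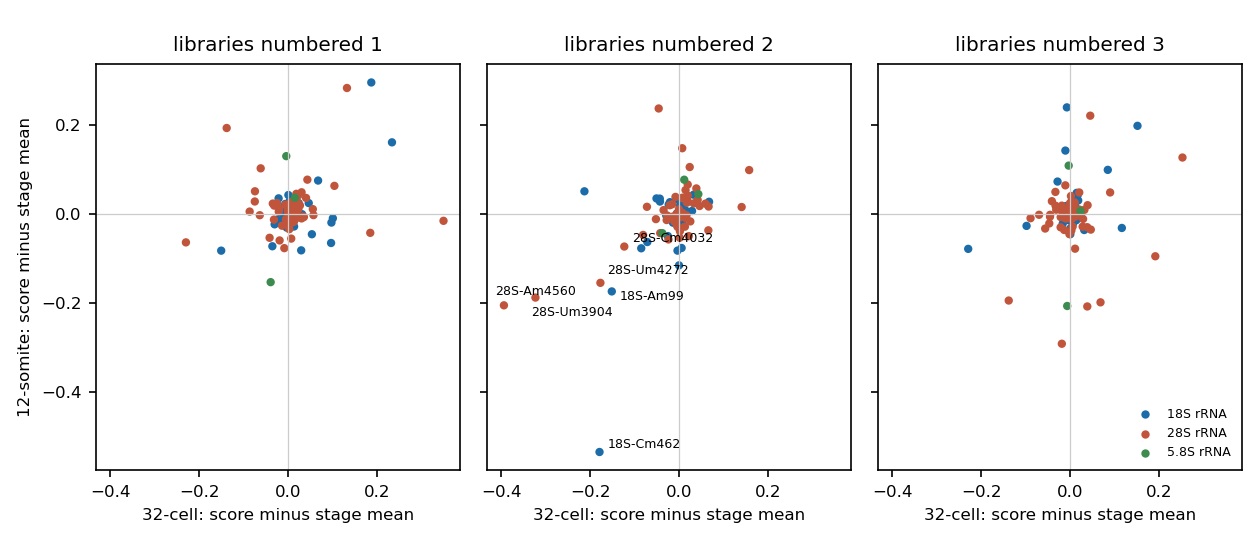
Each point is 1 of 98 sites. The axes show how far the 32-cell library (horizontal) and the 12-somite library (vertical) with the same number lie from their stage means, in score units, with colours for the rRNA. In the middle panel 18S-Cm462, 28S-Am4560, 28S-Um3904, 28S-Um4272 and 18S-Am99 are low in both libraries numbered 2.

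The adjacent pair 28S-Um4468 and 28S-Gm4469 (positions 3766 and 3767) lies, in human, in the A-loop of the large subunit, which holds the end of the incoming tRNA. Both were highly methylated at both stages. 28S-Um4468 scored 0.970, 0.943 and 0.965 at 32-cell and 0.953, 0.951 and 0.968 at 12-somite, a difference of -0.00209 with a 95% interval of -0.0256 to 0.0214. 28S-Gm4469 scored 0.943, 0.833 and 0.882, then 0.943, 0.934 and 0.960 (difference 0.0601, 95% interval -0.0291 to 0.149, limma adjusted p 0.785). In 5′ ends 28S-Gm4469 differed by -0.0173, so its direction depended on the reading. Each site of the pair is a flanking position of the other.

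The 3 sites of 5.8S rRNA had lower means at 12-somite with all ends, none past the test. 5.8S-Um8 scored 0.861, 0.877 and 0.859 at 32-cell and 0.904, 0.851 and 0.568 at 12-somite, so the difference of -0.0913 rested on 12-somite library 3 (limma adjusted p 0.808). 5.8S-Um14, which SNORD71 guides in human, scored 0.734, 0.817 and 0.770, then 0.552, 0.7502 and 0.814 (difference -0.0682, limma adjusted p 0.808). 5.8S-Gm75 scored 0.926, 0.873 and 0.934, then 0.922, 0.842 and 0.892 (difference -0.0254, limma adjusted p 0.843). In 5′ ends 5.8S-Gm75 had the other sign (difference 0.0123), while the other sites of 5.8S rRNA stayed lower. No 3′ score could be computed at 5.8S-Um8, so its score from all ends is that from 5′ ends, and 5.8S-Um14 lacks a 3′ score in 12-somite library 3.

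18S-Um287 (position 334) had nearly the same mean at these stages. It scored 0.964, 0.969 and 0.969 at 32-cell and 0.934, 0.984 and 0.976 at 12-somite (difference -0.00234, 95% interval -0.0322 to 0.0275, limma adjusted p 0.917). Its 5′ scores were 0.967 to 0.9747 and 0.938 to 0.984, and its neighbour 1 position upstream, 18S-Um286, is a flanking position of its score.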

How the data were processed

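RNA was broken with alkali, fragments of 20 to 40 nt were ligated and sequenced on an Ion Proton, per the labels' protocols. The submitters' processing notes name cutadapt 2.0 and Bowtie2 2.3.4.1. The authors deposited, for each rRNA position and library, the count of 5′ read ends, the count of all read ends (5′ plus 3′) and a RiboMeth-seq value as a fraction from 0 to 1. The deposited overview gives stage means as a score. The formula of the score was worked out from the values and matched the deposited fraction within 5e-13. The adult tail columns carry library numbers that differ from the titles, so adult scores were computed from counts and 10 other columns were not used.

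Scores at 98 sites were fitted untransformed with limma 3.58.1 (R 4.3.3), with 14 libraries (12 for 5′ ends), stage means, Benjamini-Hochberg over the sites and a threshold of 0.05. In the fit of all ends a site needed a mean of 10 read ends over its flanks, and 0 were left out. The fit of 5′ ends had no such minimum. The 3′ score is from all ends minus 5′ ends. Per-library medians were compared by exact permutation. Scores and figures were made in Python 3.11.15 (scipy 1.17.1, matplotlib 3.10.9). The fit was tested on simulated data with independent normal noise. That noise had neither the limits of the score nor library or barcode effects.

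Library numbers come from the sample titles. Across the 98 sites, deviations from the stage means correlated between same-numbered 32-cell and 12-somite libraries at 0.281, 0.565 and 0.230, all above 0.1. Differently numbered libraries correlated at -0.386 to 0.184, so the upper end also lay above 0.1. The number served as a block in an alternative fit. The block was chosen from these same scores, and the labels do not state what the number marks. Barcode-corrected library scores were rebuilt by putting in scores from 5′ ends where this matched the authors' mean, and adult values stayed uncorrected.

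The sites and lists were chosen with earlier results of these data known. The 30 sites named by rule are those with an unadjusted p under 0.05, the 10 most positive and 10 most negative differences, those under 0.75 in either stage, the 5.8S sites, 28S-Um4468, 28S-Gm4469 and 6 singled out earlier. Other named sites were chosen after their values were seen.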

Additional observations from a re-analysis of the deposited data

Results flagged for a closer look

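Some positions that the authors do not list scored at the level of listed sites in both stages. Of 6211 unlisted positions whose flanks averaged 10 read ends or more, 8 scored at least 0.75 in all 6 libraries. In 18S rRNA these were A at 1284, with a mean over the 6 libraries of 0.820, and U at 1315, with 0.856. In 28S rRNA they were G at 2398 (0.849), U at 2536 (0.859), A at 3168 (0.818) and C at 3403 (0.823). In 5.8S rRNA they were the adjacent G at 136 (0.868) and G at 137 (0.908). No control without methylation is among the 6 libraries, so a high score at these positions is a count of few read ends and was not tested as methylation.

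In 5′ ends alone 4 of the 8 also scored at least 0.75 in all 6 libraries: 18S A1284, 28S G2398, 28S U2536 and 28S A3168. The mean 5′ score of 28S U2536 was 0.979, and that of 28S C3403 was 0.492. The flanks of 28S U2536, 5.8S G136 and 5.8S G137 held as few as 14.58, 18.33 and 16.17 read ends per position, while those of 28S A3168 held at least 1446 and those of 18S A1284 at least 990.75.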

How the results depend on the processing

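Over 30 alternatives the number of sites called for 12-somite against 32-cell stayed at 0 except in 3: it was 1 with 5′ read ends only (28S-Gm1303), 1 with the 2 stages alone and 1 with barcode-corrected scores (both 18S-Gm509). Leaving out each of the 14 libraries gave 0 to 0. With the replicate number as a block it was 0, in the 2 stages alone and in the 3 stages from 32-cell to protruding-mouth. In 5′ ends the 1 call became 0 with the 2 stages alone and ran from 0 to 2 without each library. It was 0 without any one 32-cell library or without 12-somite library 2 or 3, and 2 without protruding-mouth library 3. With the replicate block it was 1, a different site (18S-Gm509, limma adjusted p 0.0255). Apart from these 2 sites the block changed no call.

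The difference of the per-library medians was -0.00956 to -0.00541 without each library and 0.000593 with means in place of medians. Sites with non-overlapping libraries numbered 7 in all ends, 15 with 5′ ends only and 13 to 24 without each library, where fewer libraries make separation easier. Sites at least 0.1 apart numbered 6, 9 with 2 flanking positions and 6 to 10 without each library, with 10 without 12-somite library 3. At the 30 named sites, 869 values under alternatives held 3 calls, 2 at 18S-Gm509 and 1 at 28S-Gm1303, and 45 had the other sign with no call on either side. The cause was not tested. Alternatives in which 5′ ends were refitted, the 3′ ends and the non-overlap counts without each library were chosen after seeing the data. In 12-somite library 3 the flanks of a site held as few as 32.25 read ends. The widest intervals were not at the thinnest sites: 18S-Cm462, with a half-width of 0.426, had at least 433.2 read ends per flanking position.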

Other observations

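Outside the listed sites, the largest positive differences without overlap lay in 28S rRNA. At G of position 3221 the 32-cell libraries scored 0.198, 0.0721 and 0, and the 12-somite libraries 0.577, 0.560 and 0.909. At C of position 4105 they scored 0.0541, 0 and 0.162, then 0.569, 0.417 and 0.888. At U of position 318 they scored 0.298, 0 and 0, then 0.496, 0.714 and 0.726. Positions 3059, 3060 and 3061, which follow each other, were higher together, with means of 0.113, 0 and 0 at 32-cell and of 0.648, 0.526 and 0.529 at 12-somite. Neighbouring positions share flanks, so these 3 values are not independent. The third 12-somite library, which had the highest background, scored highest at 3221, 4105, 318 and 3059, but not at 3060 and 3061. Its part in these differences was not tested. The largest negative differences are not listed here.

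These positions were chosen for their size, with no test. Among 6211 unlisted positions, 277 were higher and 143 lower at 12-somite by at least 0.1, without overlap between the libraries. The median difference over the unlisted positions was 0.0156, against -0.00376 over the 98 listed sites. The per-library medians of the unlisted positions overlapped between the stages (exact permutation test of 3 against 3 libraries, two-sided p 0.4).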
